A study of Mus musculus with 6 samples.

Results

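The 40 genes described here encode the working parts of mitosis, the division of a cell's copied chromosomes between 2 daughter cells. They comprise 11 kinesin motors, 5 genes of mitotic kinases and their activation, the 4 subunits of the chromosomal passenger complex, 6 genes of cytokinesis, 4 proteins of the spindle and the chromosome surface, 6 genes of condensin and topoisomerase, and 4 genes of securin, separase and mitotic ubiquitination. They were chosen by name for these roles, with earlier results of these data known. All 40 symbols are among the 35976 gene symbols of the count table. The 6 libraries come from RAW264.7, an established mouse line with macrophage properties that divides in culture. Of these libraries, 3 were made from cells exposed to itaconate for 24 h, and 3 from cells labelled as having no treatment (control). Itaconate, a dicarboxylate, is made by activated macrophages from cis-aconitate of the TCA cycle. The labels give neither its dose nor its chemical form, and they name no vehicle and no time for the control cells. Nothing in them says that the 3 libraries of a group are separate cultures. The p-values set the difference between the groups against the scatter of these libraries, which may be technical only.

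A dividing cell first condenses its chromosomes, which condensin folds into loops while topoisomerase II untangles the DNA. Kinases of the Aurora and Polo families then drive the building of a bipolar spindle, in which kinesins slide, cross-link and shorten microtubules. The anaphase-promoting complex next tags securin and cyclin B for destruction, separase is freed to cut cohesin, and the cell is pinched apart by a ring of actin and myosin. Transcripts of most of these genes accumulate in the G2 phase and mitosis and are low in resting cells, which is why several serve as markers of cycling cells. In macrophages, as in other cells, they mark the part of the population that is dividing.

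Polyadenylated RNA was counted near transcript 3′ ends, at 5202626 to 6098934 counts per library, and levels are given as CPM, in which each count is scaled to its library's TMM-adjusted total. A count of 3 in a library, taken as the detection floor, equals 0.525 to 0.565 CPM in the itaconate libraries and 0.487 to 0.560 CPM in the control libraries, and covers counting error only. The line's labelled identity was checked against 12 macrophage markers, all of which were tested. Their summed level ran from 8812 to 9221 CPM in itaconate and from 10571 to 11939.5 CPM in control libraries, with 2 markers higher, 5 lower and 5 not called. Among all genes tested, 11.2% were called lower and 10.7% higher. The largest falls of these markers were those of Csf1r, at 49.7% of its control level, and Cd14, at 51.6%. Mitochondrial transcripts took 4.80% to 5.47% of counts in itaconate and 4.52% to 5.32% in control libraries. Fibroblast, T and NK cell, B cell and epithelial markers were at or near 0, with a summed level of at most 2.10 CPM per list in any itaconate library and 1.62 CPM in any control library. Of these 22 markers 13 had 0 counts in all 6 libraries, among them Col3a1 and Dcn (fibroblasts), Cd3e (T cells), and Krt8 and Krt18 (epithelium).

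The mitotic genes were lower in itaconate than in control libraries, with no exception among those that could be tested. Together the 40 genes took 0.0605%, 0.0589% and 0.0622% of all counts in the itaconate libraries, against 0.251%, 0.225% and 0.274% in the control libraries. Of the 40, 38 passed the filter on low counts and 38 fell at an adjusted p under 0.05 (edgeR's quasi-likelihood test, Benjamini-Hochberg adjustment over 10636 genes), while 0 rose. The same test called 11.2% of all genes tested lower and 10.7% higher, or 21.9% in either direction. Since the members were chosen with earlier results of these data known, their shares beside those of all genes are a description. At least 1 lower on the log2 scale and called were 37 of the 38, against 3.86% of all genes tested, and Incenp was the exception. The median log2 fold change was -2.36, equal to 19.5% of the control level, with the middle of the range from -2.96 to -1.92 (quartiles), and the median of all genes tested was -0.01. Every itaconate library lay below every control library for all 38 tested members, a pattern seen in 17.9% of all genes tested, while the opposite order was seen in 0 members and 17.6% of all genes tested. Adjusted p-values of the 38 ran from 9.18e-24 (Top2a) to 0.0158 (Kif18a), and 26 were at least 2 lower on the log2 scale.

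The filter asks for a level of about 1.76 CPM in as many libraries as a group holds, so a gene that reaches it in the control libraries alone is tested only because it is higher there. Of the 38 tested members, 29 reached that level in all 6 libraries, 8 (Kif2c, Kif4, Kif18a, Nek2, Aurkb, Ect2, Cep55 and Espl1) reached it in every control library and in some itaconate libraries, and Shcbp1 reached it in control libraries only. Kif20a and Kifc1 did not pass. Bulk libraries do not tell fewer dividing cells apart from less of these transcripts in each cell, and this holds for every value given here.

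**Figure D1:**
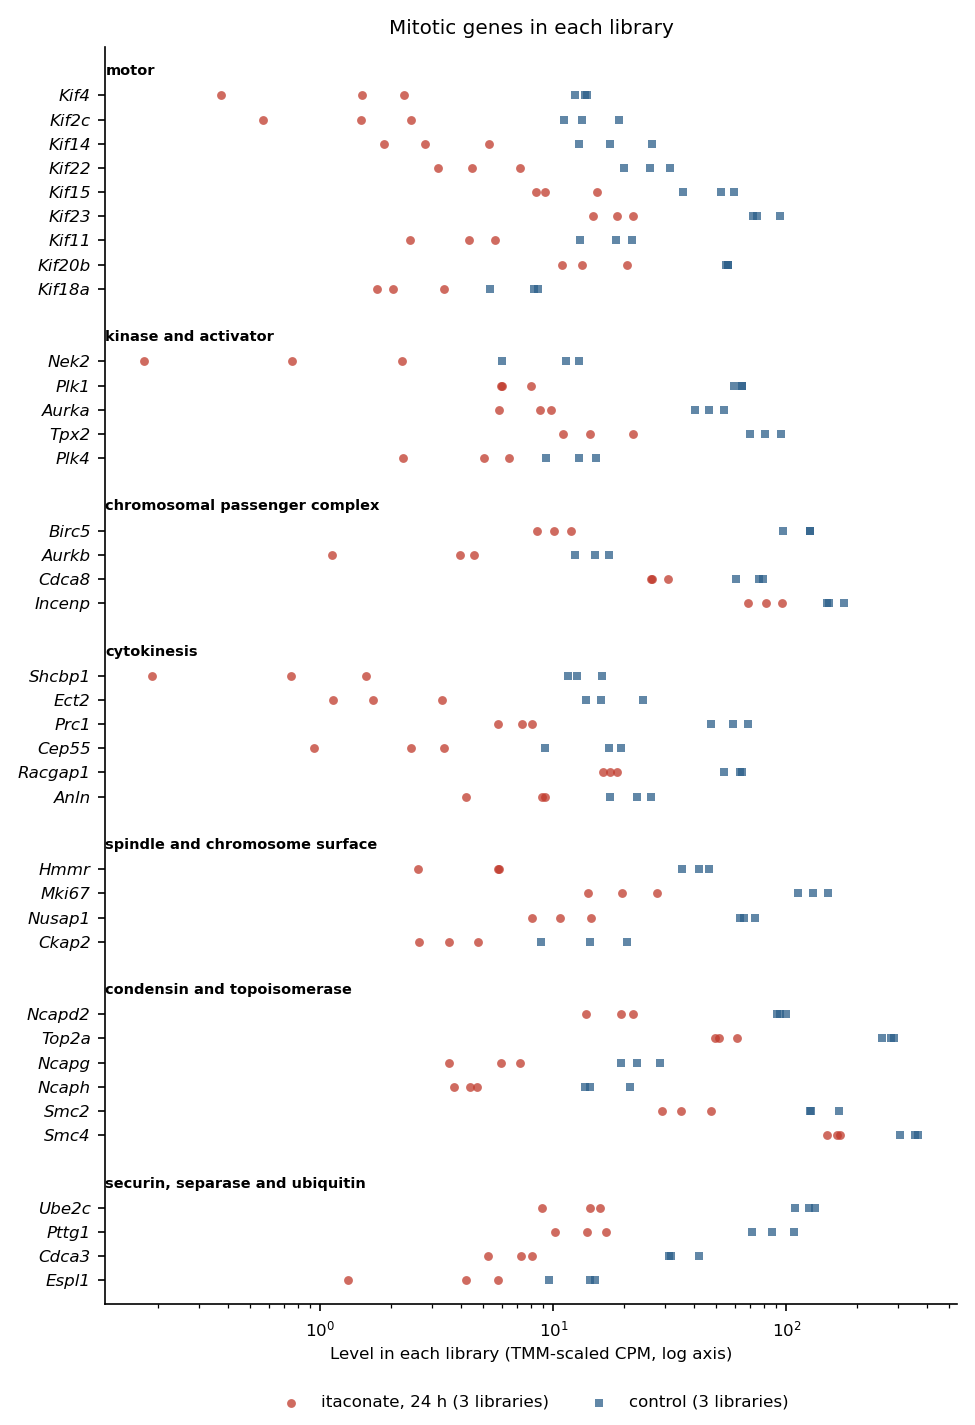
Level of each of the 38 tested mitotic genes in each library, in TMM-scaled CPM on a log axis, with 3 itaconate libraries (red circles) and 3 control libraries (blue squares) per gene, grouped by role. In every row the red circles lie to the left of the blue squares, with the widest scatter among itaconate libraries for Nek2, Shcbp1 and Kif4, which had as few as 1 or 2 counts in a library.

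**Figure D2:**
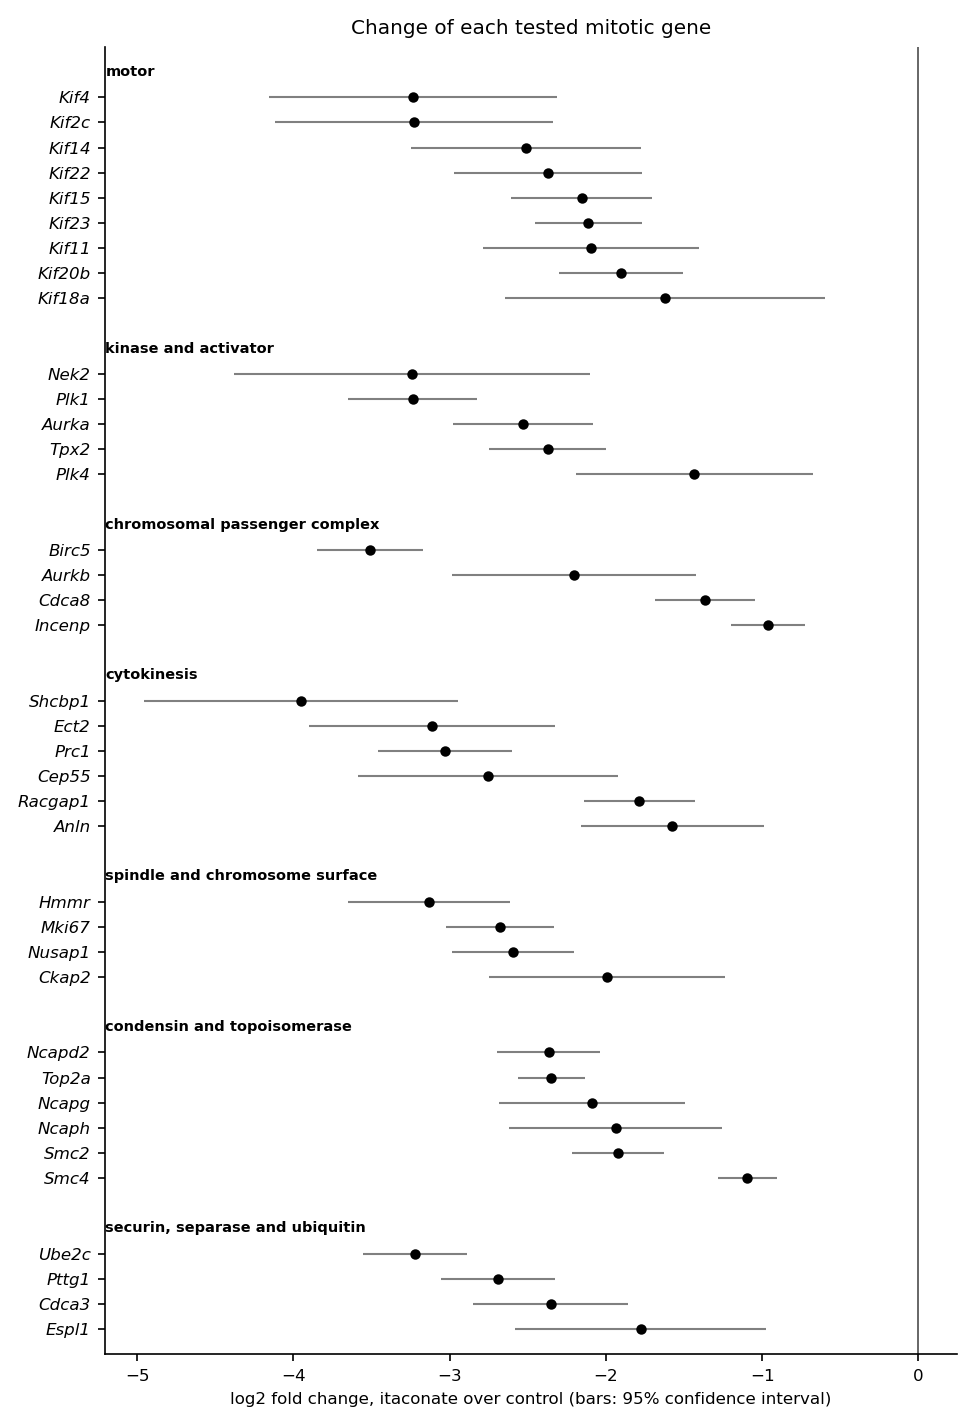
Log2 fold change of each tested mitotic gene, itaconate over control, from edgeR, with 95% confidence intervals as bars and the genes sorted within each role. The values run from -3.95 (Shcbp1) to -0.96 (Incenp), and no interval reaches 0.

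Promoters of genes that peak in G2 and mitosis commonly hold a CHR element (cell cycle genes homology region), which binds the MuvB complex within the DREAM repressor or with B-MYB and FOXM1, and CCAAT boxes, which bind NF-Y. RefSeq promoter windows (GRCm38.p6) were at hand for 34 of the 40 members, as 37 windows, and were searched over the 250 bases before the start of transcription. The other 6 members are Shcbp1, Smc4, Kif20a, Incenp, Tpx2 and Aurkb. The motifs searched on both strands were TTTGAA and TTTAAA, the core letters of the CHR, and CCAAT. The 4 members below are those with the smallest p whose window holds a CHR core, shown so that the letters can be read beside falls that stand clear of the spread between libraries. Capitals mark every match to CCAAT (or ATTGG on the other strand), TTTGAA (or TTCAAA) and TTTAAA.
Top2a: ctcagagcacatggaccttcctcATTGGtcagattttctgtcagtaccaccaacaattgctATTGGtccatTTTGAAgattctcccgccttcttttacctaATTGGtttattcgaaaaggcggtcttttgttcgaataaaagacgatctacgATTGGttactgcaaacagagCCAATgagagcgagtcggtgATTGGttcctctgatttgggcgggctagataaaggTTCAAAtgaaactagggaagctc
Birc5: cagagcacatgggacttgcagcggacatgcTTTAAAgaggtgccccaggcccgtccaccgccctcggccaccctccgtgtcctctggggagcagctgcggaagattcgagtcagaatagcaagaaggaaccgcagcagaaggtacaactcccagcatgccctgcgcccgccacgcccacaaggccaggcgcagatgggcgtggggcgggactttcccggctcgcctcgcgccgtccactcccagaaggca
Ube2c: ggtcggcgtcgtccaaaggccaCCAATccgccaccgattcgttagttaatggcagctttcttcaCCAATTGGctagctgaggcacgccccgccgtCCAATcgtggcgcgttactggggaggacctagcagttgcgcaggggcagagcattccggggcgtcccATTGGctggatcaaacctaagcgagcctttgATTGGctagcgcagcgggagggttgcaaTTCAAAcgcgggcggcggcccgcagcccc
Plk1: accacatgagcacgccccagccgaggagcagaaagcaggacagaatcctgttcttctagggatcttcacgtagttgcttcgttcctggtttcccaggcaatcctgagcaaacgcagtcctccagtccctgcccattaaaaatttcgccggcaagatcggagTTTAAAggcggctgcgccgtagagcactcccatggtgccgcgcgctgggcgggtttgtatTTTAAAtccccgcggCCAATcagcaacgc

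Each sequence reads 5′ to 3′ on the gene's own strand and ends at the base before the start of transcription. They lie at chr11:99024190-99024439 (minus strand), chr11:117848987-117849236 (plus strand), chr2:164769679-164769928 (plus strand) and chr7:122159185-122159434 (plus strand). The Ube2c window holds 6 CCAAT cores, 2 of which overlap each other, and a CHR core at -29 to -24. Top2a also has 6 CCAAT cores, with CHR cores at -179 to -174 and at -23 to -18. In Plk1 a CHR core of the TTTAAA form lies at -29 to -24, beside a CCAAT core at -14 to -10, and a second copy lies at -89 to -84. Birc5 has only a TTTAAA match far from the start, at -220 to -215, and 0 CCAAT cores.

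Over the 37 member windows, 54.1% held TTTGAA or TTTAAA, against 25.2% of the 32851 windows of all genes and 17.7% of the 10422 windows of tested genes. Taken singly, TTTGAA was in 45.9% of member windows, 16% of all windows and 10.7% of windows of tested genes. TTTAAA, the only form in the Birc5 and Plk1 windows, was in 13.5%, 12.1% and 8.54%, so its share among members lay near that of all windows. In the last 50 bases before the start, 29.7% of member windows held one of these 2 hexamers, against 4.89% of all windows and 2.85% of windows of tested genes. CCAAT was present in 67.6% of member windows, 33.8% of all windows and 35.4% of windows of tested genes, and more than once in 35.1%, 10.1% and 13.4%. The members were chosen as mitotic genes, a class for which these motifs are known, so the shares describe the promoters and carry no test. Several members that fell have none of these letters in their windows, among them Pttg1, Nusap1 and Ncaph.

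**Figure D3:**
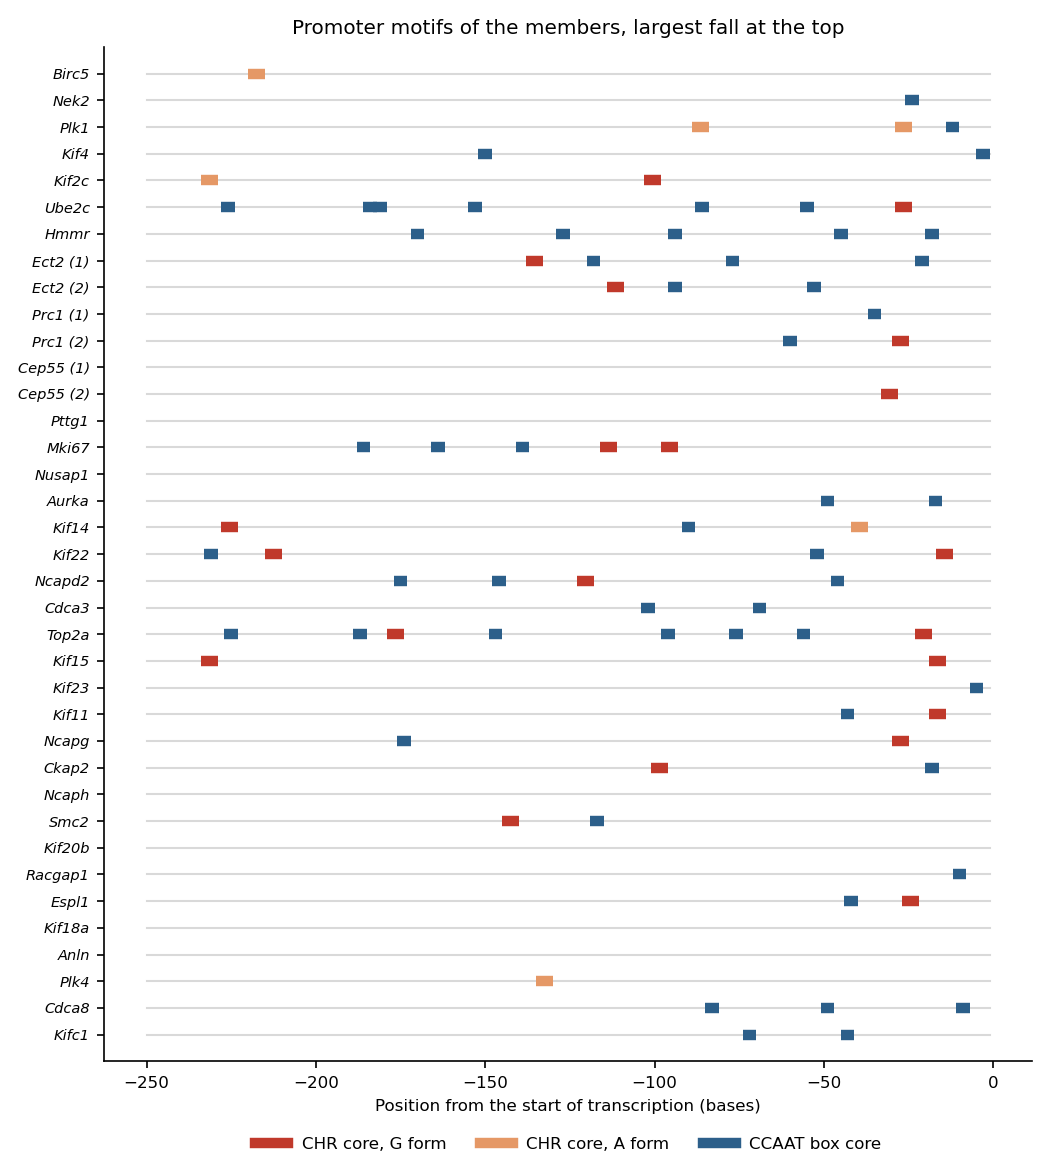
Places of CHR cores (red for the form with G, orange for the form with A) and CCAAT cores (blue) in the 250 bases before the start of transcription of the 37 member windows, on the x axis in bases from the start, with the gene of the largest fall at the top. CHR cores within 50 bases of the start appear in 11 of the 34 genes, and genes with 2 windows carry a number in brackets.

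The kinesin motors fell as a group of 9 tested members, with a median log2 fold change of -2.16. The summed level of all 11 motors, with the untested Kif20a and Kifc1 included, was 67.0, 48.02 and 74.0 CPM in the itaconate libraries, against 295, 252 and 315 CPM in the control libraries. The deepest falls were those of Kif4 and Kif2c. Kif4 encodes a chromokinesin that works with PRC1 at the central spindle and with condensin on chromosomes. It had 1.51, 0.374 and 2.27 CPM in the itaconate libraries, against 12.4, 13.97 and 13.6 CPM in the control libraries. The highest itaconate library thus stayed far under the lowest control library, although the itaconate values rest on 8, 2 and 13 reads. The fold change was -3.23 ± 0.46 (SE), with edgeR adjusted p = 2.02e-07. Kif2c encodes MCAK, which takes microtubules apart at their ends near the centromere and corrects wrong attachments. It stood at 0.565, 1.49 and 2.45 CPM in the itaconate libraries, against 13.2, 11.0 and 19.0 CPM in the control libraries, a 9.37-fold lower level (-3.23 ± 0.44).

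Kif11 and Kif15, motors of the spindle body, had fold changes nearer to 0 than those of Kif4 and Kif2c, with intervals that overlap theirs. Kif11 encodes Eg5, which pushes the spindle poles apart, and Kif15 encodes a motor that helps to keep them apart. Kif11 had 4.33, 2.43 and 5.60 CPM in the itaconate libraries, against 21.8, 13.0 and 18.5 CPM in the control libraries, and Kif15 had 9.23, 8.41 and 15.4 CPM in the itaconate libraries, against 52.4, 36.1 and 59.7 CPM in the control libraries. Both sets of libraries were well separated, at 4.27-fold and 4.46-fold lower. The fold changes were -2.10 ± 0.34 for Kif11 and -2.16 ± 0.22 for Kif15. Kif22, or Kid, is a chromokinesin that pushes chromosome arms towards the spindle equator, and it fell by 2.37 on the log2 scale. Kif18a, which dampens the oscillation of aligned chromosomes, had the smallest fall of the motors. It had 3.39, 2.06 and 1.75 CPM in the itaconate libraries, against 5.36, 8.28 and 8.58 CPM in the control libraries. Its groups were the nearest to each other in CPM of any tested member, 1.97 CPM apart. At -1.62 ± 0.51 its adjusted p was 0.0158, the largest of the 38, and its call was lost without control replicate 2 (0.0734) and without control replicate 3 (0.0793).

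Motors that act in cytokinesis fell too. Kif23 encodes MKLP1, the motor subunit of centralspindlin, and had 18.8, 14.8 and 21.9 CPM in the itaconate libraries, against 93.9, 71.8 and 74.8 CPM in the control libraries. Kif20b, a motor needed for the final cut between daughter cells, had 20.7, 10.8 and 13.3 CPM in the itaconate libraries, against 56.2, 56.0 and 55.2 CPM in the control libraries. Its control libraries were nearly equal, while 1 itaconate library stood above the other 2, and the groups did not overlap. Kif14, which recruits citron kinase to the midbody, had a log2 fold change of -2.51 ± 0.36, against -2.11 ± 0.17 for Kif23 and -1.90 ± 0.20 for Kif20b.

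Kif20a and Kifc1 could not be tested with the others. Kif20a encodes MKLP2, which carries the chromosomal passenger complex to the central spindle, and its symbol had 0 counts in each itaconate library and 0, 1 and 0 counts in the control libraries. No fold is given, since both groups lie under the floor. In its gene 972 of the 1472 bases that end its coding transcripts overlap exons of Cdc23 on the opposite strand (GENCODE M21). Whether this overlap bears on the near absence of counts was not tested. Kifc1 encodes HSET, a motor that moves towards microtubule minus ends and gathers the spindle poles. It had 0, 7 and 8 counts in the itaconate libraries, against 7, 22 and 38 in the control libraries, so the groups overlapped. With no filter its log2 fold change was -2.09 ± 0.80 and it was not called (edgeR adjusted p = 0.0705). It was called without control replicate 1 (0.0324), and its adjusted p ran up to 0.231 over the 4 fits without 1 library in which it was tested. Its counts are uncertain, since 50.8% of the 50-base stretches in the last 500 bases of its transcripts also occur in other genes, Kifc5b among them.

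Among the mitotic kinases, Plk1 and Nek2 fell most. Plk1 encodes the Polo kinase that acts from mitotic entry to cytokinesis. It had 6.03, 8.03 and 5.95 CPM in the itaconate libraries, against 64.4, 59.6 and 64.7 CPM in the control libraries. Both groups were tight, and far from each other. Its fold change was -3.24 ± 0.21, with an interval of -3.65 to -2.82 and adjusted p = 3.77e-18. Nek2, whose kinase splits the centrosome pair before mitosis, had 0.753, 2.24 and 0.175 CPM in the itaconate libraries, against 6.03, 11.4 and 12.9 CPM in the control libraries. The itaconate values come from 4, 12 and 1 reads, and every one is below the control libraries. The log2 fold change was -3.24 ± 0.57 with a wide interval of -4.38 to -2.10, and it was -4.40 without itaconate replicate 2, the library with 12 reads.

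Aurka encodes Aurora A, the kinase of centrosomes and spindle poles, and Tpx2 encodes the microtubule protein that activates it there. Aurka had 5.84, 9.72 and 8.74 CPM in the itaconate libraries, against 40.7, 46.6 and 53.7 CPM in the control libraries. Tpx2 had 14.3, 11.0 and 21.9 CPM in the itaconate libraries, against 81.0, 70.0 and 94.97 CPM in the control libraries. The groups of both genes were separated by a gap larger than the spread within either group. The log2 fold changes were -2.53 ± 0.22 for Aurka and -2.37 ± 0.19 for Tpx2. Plk4, the kinase that starts centriole duplication in S phase, changed less. It had 2.26, 5.04 and 6.47 CPM in the itaconate libraries, against 15.2, 12.8 and 9.33 CPM in the control libraries, so its highest itaconate library lay 2.86 CPM under its lowest control library. The fold change was -1.43 ± 0.38 (adjusted p = 0.00353).

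The 4 subunits of the chromosomal passenger complex, which corrects attachments at the centromere and then moves to the central spindle, all fell, but over a wide range. Birc5 encodes survivin, the subunit that docks the complex on chromosomes. It had 8.47, 10.1 and 11.9 CPM in the itaconate libraries, against 126, 97.0 and 126 CPM in the control libraries. It was 11.4-fold lower (-3.51 ± 0.17, adjusted p = 8.31e-23), a fall exceeded among the members only by that of Shcbp1. Aurkb, the Aurora B kinase itself, had 3.95, 1.12 and 4.55 CPM in the itaconate libraries, against 12.4, 15.1 and 17.4 CPM in the control libraries, and fell by 2.21 on the log2 scale. Cdca8 encodes borealin, which binds survivin and the scaffold. It had 30.9, 26.3 and 26.6 CPM in the itaconate libraries, against 79.0, 60.7 and 76.3 CPM in the control libraries (-1.37 ± 0.16). Incenp, the scaffold that activates Aurora B, had 68.2, 81.5 and 96.2 CPM in the itaconate libraries, against 149, 153 and 177 CPM in the control libraries. With -0.96 ± 0.12, it showed the smallest fall of the 38, and its itaconate level was still below every control library.

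Because the subunits of a complex are read from the same libraries, their log2 ratios within a library show how evenly they moved. The log2 ratio of Birc5 to Incenp reads was -2.99, -3.002 and -3.01 in the itaconate libraries, against -0.24, -0.66 and -0.49 in the control libraries. That of Birc5 to Cdca8 was -1.85, -1.38 and -1.15 in the itaconate libraries, against 0.67, 0.67 and 0.73 in the control libraries. Both ratios were lower in every itaconate library than in any control library. The ratio of Incenp to Cdca8 overlapped between the groups, with an exact two-sided permutation p of 0.3. Over 22 subunit pairs of the passenger complex, condensin I and the centralspindlin group, the groups did not overlap for 11, each at an exact two-sided permutation p of 0.1, the smallest that 3 libraries against 3 can give. No share over other gene pairs is given beside this count, so it does not show that these pairs stand out. After Benjamini-Hochberg adjustment over the 22 pairs the smallest value was 0.2. With 0.1 as the smallest possible p, no pair could pass 0.05, and the ratios are a description.

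Genes of cytokinesis included the largest fall of the set. Shcbp1 encodes a partner of centralspindlin found at the midbody. It had 0.188, 0.747 and 1.57 CPM in the itaconate libraries, against 11.6, 12.7 and 16.2 CPM in the control libraries. Its itaconate values rest on 1, 4 and 9 reads, the first of them under the detection floor, and all lie far below the control libraries. Shcbp1 reached the filter's level in control libraries only, so it was tested because it is high there, and the filter partly sets its rank. The log2 fold change was -3.95 ± 0.50 with an interval of -4.96 to -2.95, and -4.78 without itaconate replicate 3. Ect2 encodes the exchange factor that switches on RhoA at the cell equator, and Prc1 bundles the antiparallel microtubules of the central spindle. Ect2 had 1.13, 1.68 and 3.32 CPM in the itaconate libraries, from 6, 9 and 19 reads, against 16.1, 13.8 and 24.3 CPM in the control libraries. Prc1 had 8.10, 5.79 and 7.34 CPM in the itaconate libraries, against 58.8, 47.3 and 68.1 CPM in the control libraries. The groups of both genes were far apart, and the log2 fold changes were -3.11 ± 0.39 for Ect2 and -3.03 ± 0.21 for Prc1. In Prc1, 24.5% of the 50-base stretches at the 3′ end are shared with other genes, mostly with Rccd1 on the opposite strand.

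Racgap1 encodes the other subunit of centralspindlin and fell by 1.79 on the log2 scale, with 17.5 ± 1.23 CPM in itaconate and 60.3 ± 5.74 CPM in control libraries (SD, n = 3 each). The ratio of Kif23 to Racgap1 reads overlapped between the groups, with a difference of -0.34 on the log2 scale (exact permutation p = 0.2). The ratio of Racgap1 to Ect2 reads was 3.85, 3.20 and 2.46 in the itaconate libraries, against 1.97, 2.21 and 1.14 in the control libraries. Every itaconate library was above every control library (p = 0.1, adjusted p = 0.2, exact permutation). As 0.1 is the smallest p that 3 libraries against 3 can give, the ratio could not pass the threshold. Anln encodes anillin, the scaffold of the contractile ring, and Cep55 recruits the machinery of the final cut. Anln had 9.23, 8.97 and 4.20 CPM in the itaconate libraries, against 17.4, 22.9 and 26.3 CPM in the control libraries. Cep55 had 3.39, 0.934 and 2.45 CPM in the itaconate libraries, from 18, 5 and 14 reads, against 9.21, 17.4 and 19.6 CPM in the control libraries. Anln changed by -1.57 ± 0.29 and Cep55 by -2.76 ± 0.41.

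Of the proteins of the spindle and chromosome surface, Mki67 encodes Ki-67, the marker of cycling cells that coats mitotic chromosomes. It had 27.9, 14.01 and 19.8 CPM in the itaconate libraries, against 130.2, 112 and 152 CPM in the control libraries. The lowest control library held about 4 times the level of the highest itaconate library. Its log2 fold change was -2.67 ± 0.17 (adjusted p = 7.66e-15). Hmmr, a spindle pole protein also known as a hyaluronan receptor, had 5.84, 5.79 and 2.62 CPM in the itaconate libraries, against 42.4, 35.7 and 46.6 CPM in the control libraries (-3.13 ± 0.26). Nusap1, which links microtubules to chromosomes, changed by -2.59 ± 0.19. Ckap2, a promoter of spindle microtubule growth, changed by -1.99 ± 0.38, with 2.64, 3.55 and 4.72 CPM in the itaconate libraries and widely spread values of 8.87, 14.3 and 20.7 CPM in the control libraries.

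**Figure D4:**
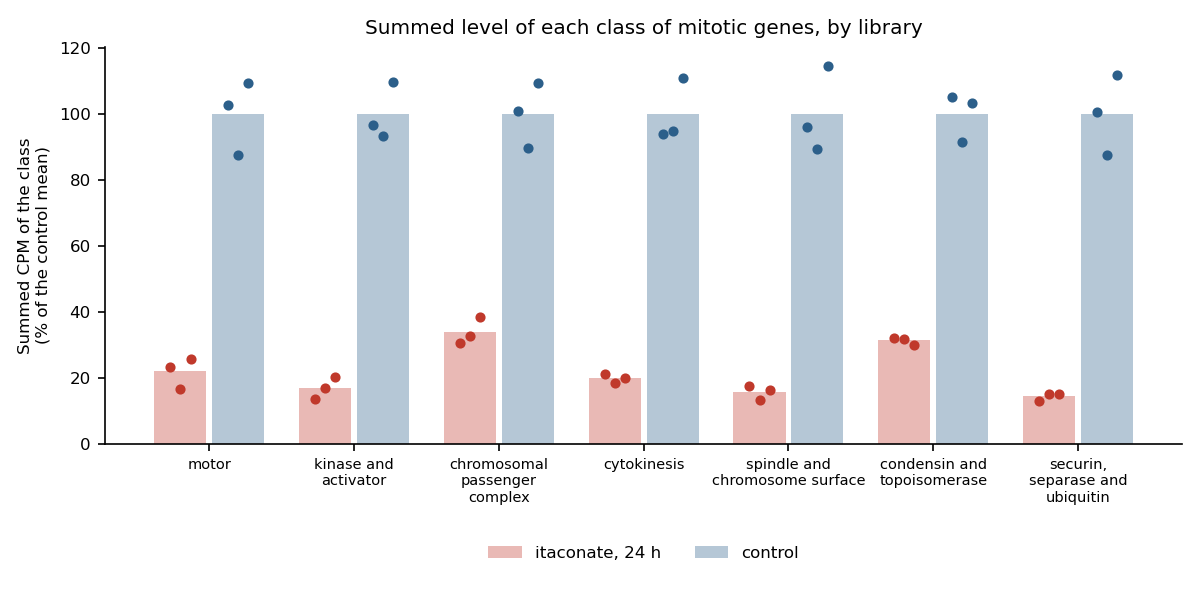
Summed CPM of each class of mitotic genes (untested members included) in each library, as a percentage of the control mean of that class, with bars for the mean of 3 libraries and points for single libraries (itaconate left in red, control right in blue). The itaconate bars run from 14.4% for securin, separase and ubiquitin to 33.9% for the chromosomal passenger complex, to whose sum Incenp adds most.

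Condensin I folds mitotic chromosomes with a pair of SMC ATPases, Smc2 and Smc4, and 3 other subunits, Ncapd2, Ncapg and Ncaph. All 5 fell. Smc4 had 165, 170.2 and 149 CPM in the itaconate libraries, against 358, 308 and 368 CPM in the control libraries. Smc2 had 47.3, 35.3 and 29.2 CPM in the itaconate libraries, against 168, 127 and 127 CPM in the control libraries. Smc4 kept a larger part of its control level than Smc2, and the log2 ratio of Smc2 to Smc4 reads was -1.80, -2.27 and -2.35 in the itaconate libraries, against -1.09, -1.27 and -1.54 in the control libraries, below the control range in each itaconate library (exact permutation p = 0.1, adjusted p = 0.2). The fold changes were -1.09 ± 0.09 for Smc4 and -1.92 ± 0.15 for Smc2. Smc2 and Smc4 serve both condensin I and condensin II.

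The 3 subunits that condensin II does not share fell as well. Ncapd2 had 13.7, 21.9 and 19.4 CPM in the itaconate libraries, against 90.7, 94.0 and 99.6 CPM in the control libraries. Ncapg had 7.16, 3.55 and 5.95 CPM in the itaconate libraries, against 22.9, 19.5 and 28.7 CPM in the control libraries, and Ncaph had 4.71, 3.74 and 4.37 CPM in the itaconate libraries, against 21.3, 13.6 and 14.4 CPM in the control libraries. No itaconate library of these genes reached a control library. Fold changes were -2.37 ± 0.16, -2.09 ± 0.30 and -1.94 ± 0.34, with intervals that overlap, and the 3 pairwise ratios among them overlapped between the groups (exact permutation p of 0.7, 0.3 and 0.5). The value of Ncapg is uncertain, because the 500 bases that end its coding transcript also lie within Lcorl exons on the opposite strand, and the strand setting of the counting is not given in the sources used here.

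Top2a encodes topoisomerase II alpha, which decatenates sister chromatids. It lies on chromosome 11 from 98992947 to 99024199 (GRCm38.p6) and had 49.3, 51.4 and 61.6 CPM in the itaconate libraries, against 282, 258 and 288 CPM in the control libraries. The groups are tight and 197 CPM apart. Its log2 fold change of -2.35 ± 0.11 had the smallest adjusted p of the members, 9.18e-24.

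The last group acts at the exit from mitosis. Ube2c encodes the ubiquitin-conjugating enzyme that starts chains on substrates of the anaphase-promoting complex. It had 14.3, 8.97 and 15.9 CPM in the itaconate libraries, against 132, 109 and 125 CPM in the control libraries. It was 9.31-fold lower (-3.22 ± 0.17, adjusted p = 1.61e-21). Pttg1 encodes securin, the inhibitor of separase, and Espl1 encodes separase. Pttg1 had 10.2, 16.8 and 13.99 CPM in the itaconate libraries, against 86.7, 71.1 and 107 CPM in the control libraries. Espl1 had 1.32, 5.79 and 4.20 CPM in the itaconate libraries, against 9.54, 15.1 and 14.4 CPM in the control libraries. The securin transcript changed by -2.69 ± 0.18 and that of separase by -1.78 ± 0.40, with intervals of -3.06 to -2.32 and -2.58 to -0.97 that overlap. Cdca3, which helps to remove the Wee1 kinase at mitotic entry, had 8.10, 7.29 and 5.25 CPM in the itaconate libraries, against 32.0, 31.3 and 42.2 CPM in the control libraries and changed by -2.35 ± 0.25.

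Across the 38 tested members, Spearman's rho between the log2 fold change and the mean control CPM was 0.08, a description over genes that share the same 6 libraries. Members made up 16 of the 100 lowest log2 fold changes of all genes tested, and 37 of the 500 lowest. Of the 16, Shcbp1, Nek2, Kif4, Kif2c, Ect2 and Cep55 did not reach the filter's level in all itaconate libraries. They were tested because of their control libraries, so the filter partly sets their places and the counts are a description.

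Other genes of cell division were read from 9 lists of 220 symbols, drawn up by textbook role with earlier results of these data known, of which 195 were tested. Of these, 56 fell, 20 rose and 119 were not called, and their median log2 fold change was -0.17. Among other kinesins, 2 of 20 tested fell, the mitotic motors Cenpe (CENP-E, -1.99 ± 0.15) and Kif18b (-1.98 ± 0.54). There 2 rose, the transport motor gene Kif3a (0.87 ± 0.11) and the kinesin light chain gene Klc2 (0.56 ± 0.17), which was not called without itaconate replicate 3 (adjusted p = 0.0993) or without control replicate 3 (0.0734). Falls were called for 11.2% and rises for 10.7% of all genes tested. The 20 rises among the 195 list genes lie near the latter share, as do the 2 rises among 20 other kinesins. The 2 falls among those 20 lie near the former share, as do 2 among 21 for dynein and dynactin. Of dynein and dynactin, which carry cargo in interphase as well, 2 of 21 fell and 4 rose. They include Nde1, a dynein regulator that mitotic kinases also control, at -0.95 ± 0.15, and the light chain gene Dynlt3 at 0.52 ± 0.09. The light intermediate chain gene Dync1li1 was at 0.50 ± 0.14, a call lost without control replicate 1 (adjusted p = 0.0818).

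Of 19 tested genes of tubulins and the gamma-tubulin ring, 5 fell and 2 rose. Here and in the next 2 lists, the 2 rises lie near or under the 10.7% called higher among all genes tested, against 11.2% called lower. Tuba1b (-1.34 ± 0.10) and Tubb5 (-0.66 ± 0.08), which encode building blocks of microtubules, were lower, and Tubgcp4, a subunit gene of the ring that nucleates them, was higher (1.86 ± 0.19). The values of Tuba1b and Tubgcp4 are uncertain, since 81.4% of the 3′ stretches of Tuba1b and 32.2% of those of Tubgcp4 occur in other genes. Among other spindle assembly factors 12 of 27 fell, with the smallest p for Cenpf (-2.04 ± 0.14), Ckap2l (-2.23 ± 0.22) and Tacc3 (-2.18 ± 0.23), and 2 rose. The value of Ckap2l is uncertain too, with 30.2% of its 3′ stretches shared with Gm14024 on the opposite strand. Among other mitotic kinases and phosphatases 12 of 26 fell, with the smallest p for Cdk1, the kinase that drives entry into mitosis (-1.95 ± 0.17), and the checkpoint kinase genes Bub1b (-1.80 ± 0.20) and Ttk (-2.13 ± 0.28), and 2 rose. The falls in these last lists include Fam83d, Haus5, Mastl and Cdc25c, which reached the filter's level of 1.76 CPM in control libraries only. They were tested because they are high there.

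In the list of condensin II and cohesin 11 of 21 fell and 0 rose. The core cohesin subunit genes Smc1a (-0.67 ± 0.09), Smc3 (-0.75 ± 0.11) and Rad21 (-0.74 ± 0.11), whose complex also shapes chromatin in interphase, had values closer to 0 than any of the 38 members. Others of the 11 fell further, such as Sgol2a (-1.98 ± 0.30) and Cdca5 (-1.63 ± 0.35), and 10 of the 21 were not called. The condensin II genes Ncapg2, Ncapd3 and Ncaph2 were at -1.41 ± 0.37, -0.72 ± 0.23 and -0.49 ± 0.13. Of other genes of cytokinesis and abscission 2 of 29 fell and 8 rose, while 3 were called higher when libraries were scaled by their totals alone. These 2 falls lie under the 11.2% called lower among all genes tested. Cit, the citron kinase gene, was lower (-1.22 ± 0.24), while Chmp4b (0.57 ± 0.09) and Chmp5 (0.53 ± 0.11), of the ESCRT-III machinery that also works on endosomes, were higher. The anaphase-promoting complex had 4 of 17 lower and 0 higher. Of those, Cdc20, its mitotic activator, changed by -5.14 ± 0.52 and Fbxo5, its inhibitor EMI1, by -3.17 ± 0.37. The G1 activator gene Fzr1 changed by -1.02 ± 0.19 and the core subunit gene Anapc5 by -0.87 ± 0.11. Cdc20 had 7, 1 and 0 reads in the itaconate libraries and reached the filter's level of 1.76 CPM in control libraries only, so it was tested because it is high there. Its log2 fold change was -7.33 without itaconate replicate 1, where 1 read remains and the size is uncertain, and -4.55 without itaconate replicate 3. Of the DREAM, MuvB and FOXM1 regulators 6 of 15 fell and 0 rose, with the smallest p for Foxm1, an activator of mitotic genes (-1.34 ± 0.18), and for the repressor genes E2f8 (-2.42 ± 0.48) and E2f7 (-4.34 ± 0.86). E2f7 had 0, 4 and 0 reads in the itaconate libraries, so the size of its fitted fold change rests on 1 library and is uncertain. Like Cdc20, it reached the filter's level in control libraries only.

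**Figure D5:**
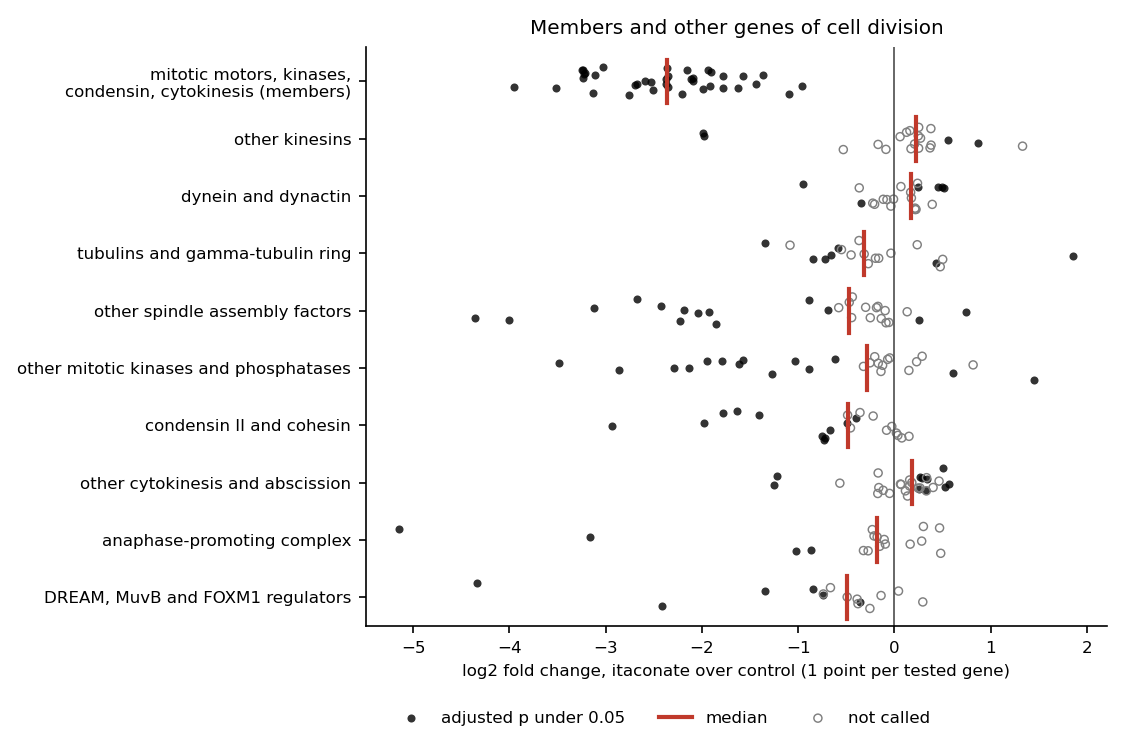
Log2 fold change, itaconate over control, of each tested gene in the set of 38 mitotic members (top row) and in the 9 other lists of cell division, with filled points for an adjusted p under 0.05, open points for genes not called and red lines for medians. The member points all lie left of -0.9 with a median of -2.36, and the medians of the other lists run from -0.49 (DREAM, MuvB and FOXM1 regulators) to 0.23 (other kinesins).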

How the data were processed

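Per the labels' protocols, RNA was extracted with TRIzol and sequenced from Lexogen QuantSeq FWD libraries, which read transcript 3′ ends. The authors deposited raw counts per gene symbol. STAR 2.7.5a, HTSeq 0.6.1, edgeR and the build mm10 are named in the submitters' processing notes. Neither the strand setting nor the annotation version is given in the sources used here. Header names and data columns use different separators, and the 6 counts of a line were matched to the 6 names by place.

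Filtering with filterByExpr (minimum count 10, minimum total 15) left 10636 of 35976 symbols, which hold 99.7% of counts. Scaling was by TMM. The 2 groups were compared in a quasi-likelihood F test (edgeR 4.0.16 in R 4.3.3, robust, two-sided, all 6 libraries, no covariate), Benjamini-Hochberg adjusted over all tested genes, with calls made under 0.05. Positive log2 fold changes mean higher in itaconate, and the SE is the absolute change divided by the square root of F. Within-complex log2 ratios used raw counts plus 0.5. Code was tested on simulated data. Alternatives were DESeq2 1.42.0, limma-voom (limma 3.58.1), other scalings and filters, a replicate block, and each library left out.

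All members were named, and from each other list the 3 genes with the smallest p, plus every called gene where 5 or fewer were called. A few further genes of these lists were named to show a limit or a range, and were not followed across the alternatives. Members, classes and lists were chosen with earlier results of these data known. The symbols Diap1 and Diap3 had no match in the table. Exon overlaps and 3′ stretches of 50 bases come from GENCODE M21, coordinates and promoters from RefSeq GRCm38.p6. Protein sequences were not used here.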

Additional observations from a re-analysis of the deposited data

How the results depend on the processing

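The count of members called lower was 38 under library totals, DESeq2's size factors, DESeq2, limma-voom and no filter, and 36 with at least 50 counts in 3 libraries, where Kif18a and Nek2 were no longer tested. Leaving out 1 library gave 37 to 39 members lower and 0 higher, and the member median ran from -2.48 (without itaconate replicate 3) to -2.21 (without control replicate 3). Of 492 values of single members over 13 alternatives, 490 kept direction and call, and 2, both of Kif18a, lost the call. For the other named genes 372 of 375 kept both. The 20 list genes called higher became 12 with library totals, which moved the median of all genes from -0.01 to -0.06, and 13 to 18 without 1 library, the lowest without itaconate replicate 2 or control replicate 1. Among these, the other cytokinesis and abscission genes had 8 higher, against 3 with library totals and 3 to 7 without 1 library. The 2 rises among other spindle assembly factors became 1 with library totals and 0 to 2 without 1 library, 0 without itaconate replicate 2. The 2 among tubulins became 1 and 1 to 2, and the 2 falls among other kinesins became 1 under the stricter filter. Deviations of same-numbered libraries from their group means correlated across genes at -0.00787, 0.014 and 0.0435, and those of the other pairs at -0.0407 to 0.0294. Deviations from a mean of 3 libraries cannot decide whether same-numbered libraries share a day or batch, and the labels name no batch. With the replicate block 38 members were lower, with a median of -2.37, and 1160 of all genes were lower and 1087 higher. Too few counts kept Kif20a and Kifc1 from being tested, and why they had so few was not tested. Among tested members, 7 had fewer than 20 counts in every itaconate library, which limits their fold changes. These are Nek2, Shcbp1, Kif4, Kif2c, Ect2, Cep55 and Kif18a.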
